A study of Mus musculus with 5 samples.

Results

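Small leucine-rich proteoglycans are secreted matrix proteins, and the 10 genes described here encode members of that family: Kera, Epyc, Fmod, Lum, Dcn, Ogn, Bgn, Aspn, Prelp and Omd. They were taken by gene symbol from the annotation of the array, and all 10 had 1 probe set each among the 10361 probe sets of the table. The RNA came from sciatic nerves of mouse pups on a C57Bl6N background at 2 days after birth, pooled by genotype with 12 nerves per pool and hybridised to 1 array per pool. The knock-out nerves were Ebf2-/- (KO pools 2 and 4), with neither copy intact of a gene whose product is a DNA-binding early B cell factor, and the wild-type nerves were Ebf2+/+ (WT pools 1, 9 and 11). Pups of both genotypes came from crosses of heterozygous parents. The labels state neither which Ebf2 exons are deleted nor how many animals or litters each pool drew on, so p-values reflect the variation among these pools, which may be technical. The design asks which genes differ in expression between Ebf2-/- and wild-type nerves. Every value is a log2 expression value made with RMA, and each log2 fold change is the KO mean minus the WT mean with its moderated standard error (SE), over 2 KO and 3 WT pools.

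Proteins of this family carry a short core of leucine-rich repeats, bind fibrillar collagen and set the width and spacing of its fibrils. Several bear chains of chondroitin, dermatan or keratan sulfate. In peripheral nerve the collagen lies in the endoneurium around the axons, in the sheath called the perineurium and in the outer epineurium, and fibroblasts of these layers are a known source of decorin and lumican. Keratocan and epiphycan are better known from other tissues, keratocan from the corneal stroma and tendon and epiphycan from growth plate cartilage.

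The genes were chosen by the KO minus WT differences of Kera and Epyc on these same arrays, which were among the largest, and the rest of the family was added by name. The differences of all 10 genes are therefore given as a description with no p-value. The family order along the genome was also part of the choice, with Dcn, Lum, Kera and Epyc in a row on chromosome 10 of assembly GRCm38.p6. Prelp and Fmod lie near each other on chromosome 1, Aspn, Omd and Ogn lie in a row on chromosome 13, and Bgn lies on the X chromosome.

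The sequence before the start of transcription was searched for the palindrome bound by early B cell factors, since Ebf2 is the gene lost. This motif is the core CCCNNGGG with a T before it and an A after it. RefSeq windows of 300 bases, 250 before and 50 after an annotated start, were at hand for 8 of the 10 genes (9 windows, with 2 for Epyc). The full motif was in 0 of these 9 windows and in 0.904% of the 32851 mouse windows, and the core was in 0 of the 9 and in 13.7% of all windows. Both motifs read the same on the opposite strand, and every full motif contains the core. The 250 bases before the start are shown for Kera and for the 2 starts of Epyc, the genes with the large differences, and for Fmod, a relative with a small one. Capitals mark the stretches closest to the full motif in each window, read 5′ to 3′ on the strand of the gene, in build GRCm38.p6.
Kera (chr10:97606955-97607204, + strand): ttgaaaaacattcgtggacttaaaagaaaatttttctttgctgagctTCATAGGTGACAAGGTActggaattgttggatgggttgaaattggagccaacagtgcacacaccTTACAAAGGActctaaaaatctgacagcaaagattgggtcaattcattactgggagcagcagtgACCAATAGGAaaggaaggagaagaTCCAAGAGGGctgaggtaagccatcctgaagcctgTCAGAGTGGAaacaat
Epyc, first start (chr10:97643818-97644067, + strand): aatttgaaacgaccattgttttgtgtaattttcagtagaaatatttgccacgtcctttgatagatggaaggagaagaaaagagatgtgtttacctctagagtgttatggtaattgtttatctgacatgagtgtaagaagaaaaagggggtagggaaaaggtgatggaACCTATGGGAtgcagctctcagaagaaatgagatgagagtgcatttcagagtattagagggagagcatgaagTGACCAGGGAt
Epyc, second start (chr10:97646853-97647102, + strand): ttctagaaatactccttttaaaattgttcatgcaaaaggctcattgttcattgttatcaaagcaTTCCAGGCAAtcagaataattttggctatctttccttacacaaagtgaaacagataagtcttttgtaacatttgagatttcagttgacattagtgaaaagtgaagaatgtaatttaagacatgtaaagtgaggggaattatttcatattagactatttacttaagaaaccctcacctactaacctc
Fmod (chr1:134037004-134037253, + strand): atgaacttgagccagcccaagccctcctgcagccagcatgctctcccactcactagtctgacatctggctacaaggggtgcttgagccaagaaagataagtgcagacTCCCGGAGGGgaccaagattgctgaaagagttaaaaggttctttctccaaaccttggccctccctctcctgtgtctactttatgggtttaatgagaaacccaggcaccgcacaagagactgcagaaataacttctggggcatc
In Kera the 6 closest stretches shared 5 of the 8 fixed letters of the motif, as did the 1 stretch before the second start of Epyc. The first start of Epyc had 2 stretches and Fmod 1 stretch with 6 of 8 letters. Of all windows 99.3% held a stretch with at least 5 letters and 71.2% one with at least 6, so these matches were common. By this count 0.779% held all 8 letters, below the 0.904% given above, so the letter count and the motif search were not made alike. The annotated Kera gene begins within the window shown for it. A match describes letters only, and its absence covers only this window.

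Ebf2 itself read 9.25 and 8.75 in KO pools 2 and 4, against 11.55, 11.14 and 11.40 in WT pools 1, 9 and 11, so each array stood on the side of its label. The mean of 6 measured Schwann cell markers, which define the nerve, was 11.70 and 11.35 in KO pools 2 and 4, against 11.88, 11.98 and 11.93 in WT pools 1, 9 and 11. The pools also differed in RNA of neighbouring tissue. The mean of 12 skeletal muscle marker genes was 11.02 and 11.20 in KO pools 2 and 4, against 10.51, 12.10 and 11.91 in WT pools 1, 9 and 11. The mean of 8 keratinocyte markers was 7.31 and 7.63 in KO pools 2 and 4, against 7.30, 9.74 and 8.85 in WT pools 1, 9 and 11. WT pools 9 and 11 thus stood apart, and differences of the members and their neighbours and the list medians given below are also given against WT pool 1 alone, which leaves 1 WT sample and no spread of its own group. The median over all probe sets was 9.11 and 8.93 in KO pools 2 and 4, against 9.11, 9.09 and 9.04 in WT pools 1, 9 and 11. In every probe set of the table the fourth-ranked value exceeded the lowest by at least 0.175, a bound on spread that no source used here explains, and for the 10 genes this gap ran from 0.215 (Ogn) to 2.38 (Kera).

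Kera, which encodes keratocan, was higher in KO nerves. Its probe set (10365987) read 11.82 and 11.90 in KO pools 2 and 4, against 10.40, 9.44 and 9.78 in WT pools 1, 9 and 11. Both KO pools lay above all WT pools, and the lower KO pool exceeded the highest WT pool by 1.43. The mean was 11.86 ± 0.05 (SD, n = 2) in KO and 9.87 ± 0.49 (SD, n = 3) in WT, a 3.97-fold higher level in KO (log2 fold change 1.99, SE 0.22). Against WT pool 1 alone the difference was 1.46, or 2.76-fold. In bulk RNA a change in the number of cells that express a gene and a change in RNA per cell cannot be told apart.

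Epyc, which encodes epiphycan, had a like pattern. Its probe set (10365991) read 11.16 and 11.10 in KO pools 2 and 4, against 9.71, 8.84 and 9.45 in WT pools 1, 9 and 11. The groups did not overlap, and the gap between the lower KO pool and the highest WT pool was 1.39. The mean was 11.13 ± 0.04 (SD, n = 2) in KO and 9.33 ± 0.45 (SD, n = 3) in WT, which made the KO level 3.49-fold higher (log2 fold change 1.80, SE 0.21). The difference against WT pool 1 alone was 1.42, or 2.68-fold. In both Kera and Epyc the KO pools lay close together, differing by 0.075 and 0.061, while the WT pools spanned 0.957 for Kera and 0.873 for Epyc. The median probe set of the table had a gap of 0.205 between the KO pools and a range of 0.256 over the WT pools.

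**Figure D1:**
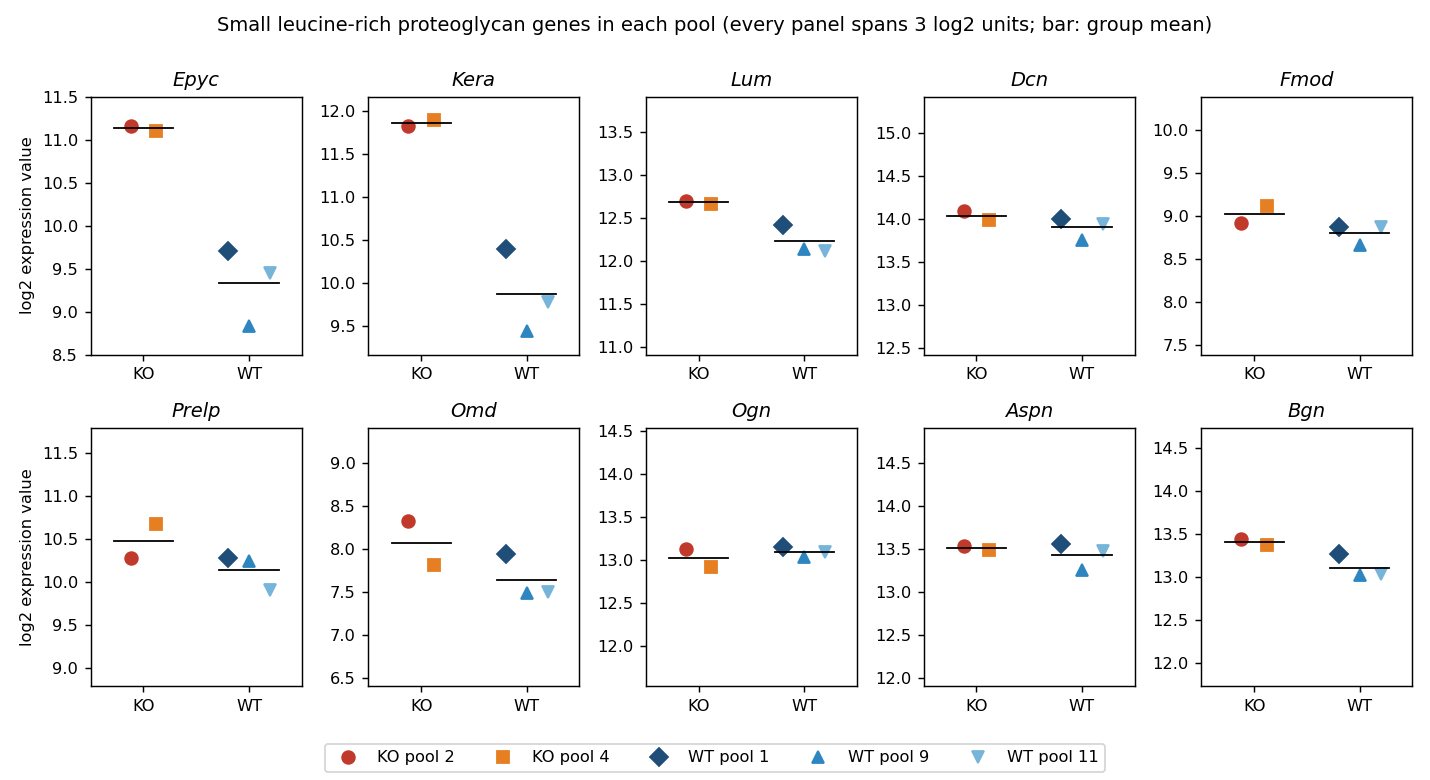
Log2 expression values of the 10 small leucine-rich proteoglycan genes, 1 panel per gene, with KO pools on the left and WT pools on the right. Each point is 1 pool of 12 nerves, the bar is the group mean and every panel spans 3 log2 units. Kera and Epyc show a wide gap between KO and WT pools, and the other 8 genes show small differences or overlap.

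Lum and Dcn lie on the same stretch of chromosome 10, with Lum next to Kera among the protein-coding genes and Dcn at the far end from Epyc. Lum, which encodes lumican, a keratan sulfate proteoglycan of many connective tissues, read 12.70 and 12.66 in KO pools 2 and 4, against 12.42, 12.14 and 12.12 in WT pools 1, 9 and 11. Its groups did not overlap, and the gap was 0.242. The log2 fold change was 0.45 (SE 0.17, 1.37-fold), and 0.26 against WT pool 1 alone, over 1.5 times smaller. Dcn, which encodes decorin, a dermatan or chondroitin sulfate proteoglycan that binds collagen and TGF-beta, read 14.09 and 13.99 in KO pools 2 and 4, against 13.995, 13.76 and 13.95 in WT pools 1, 9 and 11. KO pool 4 and WT pool 1 were nearly equal, so the groups overlapped, and the log2 fold change was 0.14 (SE 0.17), or 0.04 against WT pool 1 alone. These Dcn values lie close to the highest value of the table, 14.3. Along the chromosome the log2 fold changes were thus 0.14 for Dcn, 0.45 for Lum, 1.99 for Kera and 1.80 for Epyc.

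The 20 nearest RefSeq genes around this block, 10 on each side, included 2 that were measured, both beyond Epyc. Ccer1 read 5.67 and 5.83 in KO pools 2 and 4, against 5.71, 6.04 and 5.99 in WT pools 1, 9 and 11, and did not pass (log2 fold change -0.16, limma adjusted p = 0.671), with 0.04 against WT pool 1 alone. Atp2b1, which encodes a calcium pump of the plasma membrane, read 11.85 and 11.68 in KO pools 2 and 4, against 11.68, 11.41 and 11.46 in WT pools 1, 9 and 11 (log2 fold change 0.25, limma adjusted p = 0.528), or 0.08 against WT pool 1 alone. Neither neighbour passed the test, and no measured gene was at hand on the Dcn side. Ccer1 read far below the array medians, which ran from 8.93 to 9.11, so little can be read from its values.

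The other 3 members of class II of the family, to which Kera and Lum also belong, differed less. Fmod, which encodes fibromodulin, a keratan sulfate proteoglycan of tendon and cartilage, read 8.92 and 9.12 in KO pools 2 and 4, against 8.88, 8.66 and 8.88 in WT pools 1, 9 and 11. The groups did not overlap, but the gap of 0.048 was smaller than the difference of 0.198 between the KO pools. Its log2 fold change was 0.22 (SE 0.17), and 0.15 against WT pool 1 alone. WT pools 1 and 11 shared exactly the same Fmod value, as the summary step of RMA can give.

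Prelp, which encodes a proline- and arginine-rich member that anchors basement membranes, read 10.28 and 10.67 in KO pools 2 and 4, against 10.28, 10.24 and 9.90 in WT pools 1, 9 and 11. KO pool 2 and WT pool 1 held the same value, so the groups touched, and the KO pools differed by 0.398. The log2 fold change was 0.34 (SE 0.18), with 0.14 without KO pool 4 and 0.53 without KO pool 2, and it was 0.20 against WT pool 1 alone, over 1.5 times smaller. Omd, which encodes osteomodulin of mineralised tissue, read 8.33 and 7.82 in KO pools 2 and 4, against 7.95, 7.50 and 7.50 in WT pools 1, 9 and 11. KO pool 4 lay below WT pool 1. The Omd difference was 0.43 (SE 0.19), and 0.13 against WT pool 1 alone, while without KO pool 2 it was 0.18 and without KO pool 4 it was 0.68.

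Prelp and Omd thus went opposite ways between the KO pools, Prelp further up in KO pool 4 and Omd further up in KO pool 2. On chromosome 1, Fmod and Prelp both had differences under 0.4. Of the 10 RefSeq genes nearest to Fmod, 5 on each side, 2 were measured, namely Prelp and Btg2. Btg2, an antiproliferative gene, read 8.95 and 8.73 in KO pools 2 and 4, against 8.84, 8.87 and 9.09 in WT pools 1, 9 and 11, and did not pass (log2 fold change -0.09, limma adjusted p = 0.799), with 0.0045 against WT pool 1 alone.

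Class III holds Epyc and Ogn, and these relatives did not show the same difference. Ogn, which encodes osteoglycin, also called mimecan, read 13.13 and 12.92 in KO pools 2 and 4, against 13.15, 13.03 and 13.10 in WT pools 1, 9 and 11. Both KO pools lay below WT pool 1, and KO pool 2 lay above WT pools 9 and 11. Ogn was the 1 member with a KO mean below the WT mean (log2 fold change -0.07, SE 0.17), and its sign turned without KO pool 4 (0.04). Against WT pool 1 alone it was -0.13.

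Class I holds Bgn and Aspn beside Dcn. Bgn, which encodes biglycan, a chondroitin or dermatan sulfate proteoglycan close to decorin, read 13.44 and 13.37 in KO pools 2 and 4, against 13.27, 13.01 and 13.03 in WT pools 1, 9 and 11. The groups did not overlap, with a gap of 0.108. Its log2 fold change was 0.31 (SE 0.17), and 0.14 against WT pool 1 alone, over 1.5 times smaller. Aspn, which encodes asporin, a relative without the usual attachment of sulfated chains, read 13.53 and 13.48 in KO pools 2 and 4, against 13.55, 13.25 and 13.48 in WT pools 1, 9 and 11. WT pool 1 was the highest of the 5 pools, and the difference was 0.08 (SE 0.17), or -0.05 against WT pool 1 alone and -0.01 without WT pool 9.

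**Figure D2:**
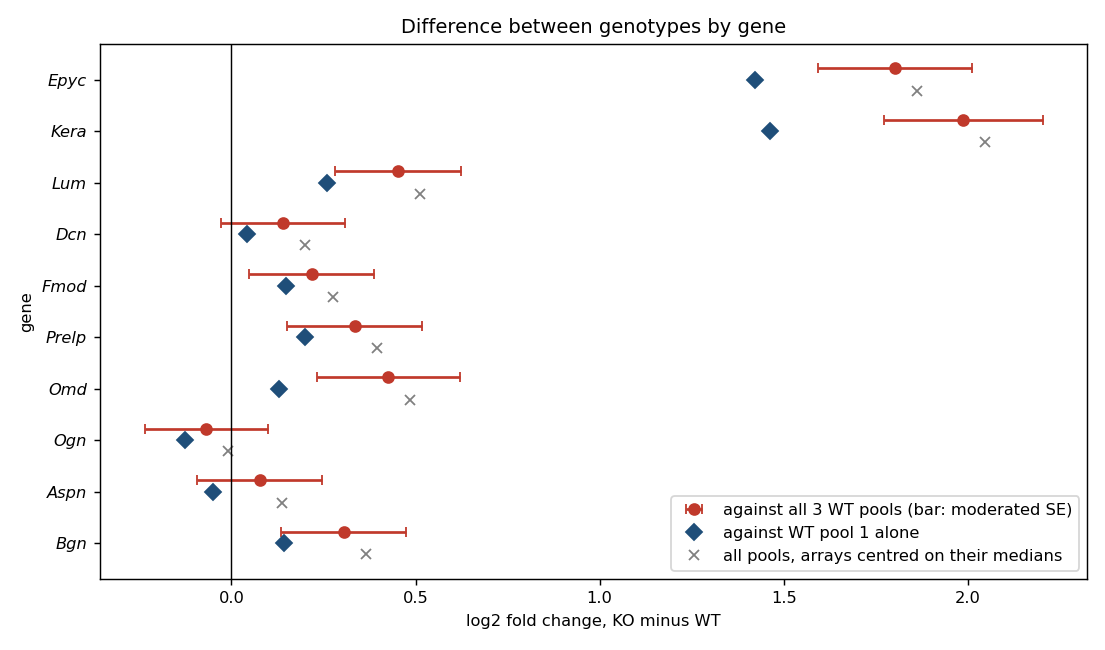
Log2 fold changes, KO minus WT, of the 10 genes. Circles with SE bars are against all 3 WT pools, diamonds are against WT pool 1 alone and crosses are after each array was centred on its median. Kera and Epyc lie above 1.4 on all 3, and the other genes lie between -0.13 and 0.51.

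Read as a family, 9 of the 10 genes had a KO mean above the WT mean, where 49.8% of all probe sets did. Both KO pools lay above all WT pools in 5 genes (Epyc, Kera, Lum, Fmod and Bgn), where 17.5% of all probe sets did, and the pools overlapped or touched in the other 5. The median log2 fold change was 0.32 over the 10 genes and 0.26 over the 8 genes other than Kera and Epyc, beside -0.0017 over all probe sets. All of these counts use the contrast by which the genes were picked out, and nothing is read from them. By signed log2 fold change, from the highest down, Kera ranked 1 and Epyc 3 of the 10361 probe sets, whereas Lum ranked 499. Against WT pool 1 alone the KO mean was higher in 8 of the 10 genes, Kera and Epyc among them, and lower in Ogn and Aspn. No share of all probe sets was taken for this contrast, so nothing is read from the count.

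The WT pools can be compared with each other apart from the genotype contrast. WT pool 1 had the highest value of the WT pools, or shared it, in 10 of the 10 genes, and 44.2% of all probe sets did so. WT pool 9 was the lowest in 8 of the 10 genes, against 33.2% of all probe sets. The order of WT pools 1, 11 and 9 from high to low held in 8 genes, against 25.4% of all probe sets. WT pool 1 exceeded the mean of WT pools 9 and 11 by 0.79 for Kera, 0.57 for Epyc, 0.45 for Omd and 0.29 for Lum, and by less for the other 6 genes, down to 0.09 for Ogn. The median of this excess was 0.22 over the 10 genes and 0.02 over all probe sets. The muscle and keratinocyte lists ran the opposite way in the same pools, at medians of -1.55 and -1.93, and their part in the order of the WT pools was not tested. The endothelial markers, with a median of 0.44, and the perineurium markers, with 0.36, were likewise higher in WT pool 1. So were the lists of collagens and their assembly (0.27), matrix proteases (0.23) and other proteoglycan core proteins (0.22). Keratan sulfate synthesis was at 0.18 and chondroitin and dermatan sulfate synthesis at 0.12. The excess was thus not particular to the family. More distant relatives (-0.07), Schwann cell markers (-0.0445) and cartilage markers (-0.11) went the other way. No list has a test here, since 1 pool stands against 2.

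**Figure D3:**
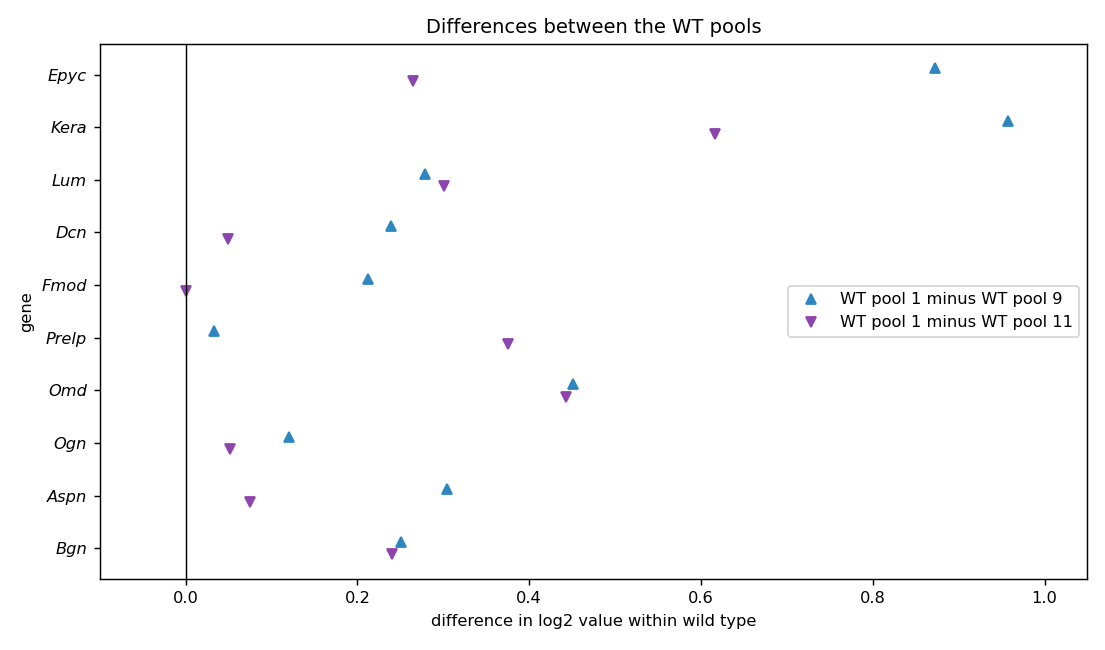
Differences in log2 value between WT pools for the 10 genes, as WT pool 1 minus WT pool 9 (upward triangles) and WT pool 1 minus WT pool 11 (downward triangles). None lies below 0, and the longest distances are from WT pool 9 for Kera (0.957) and Epyc (0.873) and from WT pool 11 for Kera (0.616).

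Likeness to other genes was measured as the root mean square difference (RMS) over the 5 pools, after each gene was centred on its own mean, among 9406 other genes. For Kera the nearest genes were Epyc (0.154), Pi15 (0.160), Moxd1 (0.209), Gcg (0.241) and Aldh1a2 (0.266). The nearest to Epyc were Gcg (0.129), Kera (0.154), Moxd1 (0.164), Aldh1a2 (0.167) and Pi15 (0.242). The same 6 genes thus made up both groups, and they lie on chromosomes 1, 2, 9 and 10. Pi15 encodes a secreted protein of the CAP family, Gcg the precursor of glucagon, Moxd1 a monooxygenase and Aldh1a2 an enzyme that makes retinoic acid. Pi15 read 10.72 and 10.68 in KO pools 2 and 4, against 9.46, 8.62 and 8.55 in WT pools 1, 9 and 11, and Gcg read 10.94 and 11.12 in KO, against 9.69, 8.98 and 9.57 in WT. The measure includes the genotype difference itself. In all, 2 genes lay within an RMS of 0.2 of Kera and 4 within 0.2 of Epyc.

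By this measure no member other than Epyc was among the 5 genes nearest to Kera. Genes were centred but not scaled, so distance depends on the size of the KO minus WT difference, by which Kera and Epyc were chosen. Nothing is read from it about the shape of the pattern. Lum stood at an RMS of 0.783 from Kera and 0.698 from Epyc, and Lum ranked 444 among the genes nearest to Kera. For members with small differences the measure separates little, since 2511 genes lay within 0.2 of Lum, 4256 within 0.2 of Fmod and 5069 within 0.2 of Dcn. The 5 nearest to Fmod were Pon2, Card19, Ccnk, Chst2 and Isoc1, with RMS from 0.013 to 0.016. Among the members with small differences the closest pair was Dcn and Aspn, with an RMS of 0.040.

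**Figure D4:**
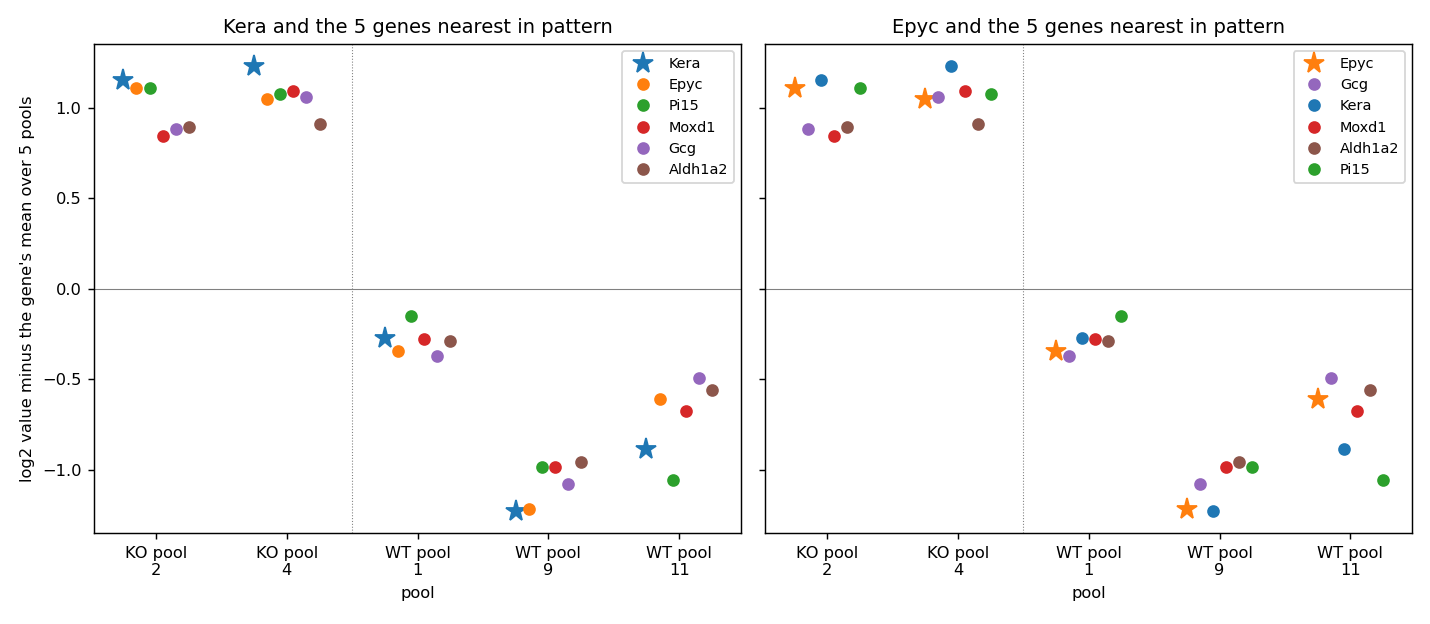
Log2 values centred on the mean of each gene over the 5 pools, for Kera (left) and Epyc (right) as stars and the 5 genes nearest to each as circles. In both panels every gene lies above its mean in KO pools 2 and 4 and below it in all WT pools, with WT pool 1 the highest of the WT pools.

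Enzymes that build the sulfated chains of these proteoglycans were measured in part. Of 16 listed genes of keratan sulfate synthesis and sulfate supply 10 were measured, 0 passed the test in either direction, and the median log2 fold change was 0.17 (0.05 against WT pool 1 alone). The furthest from 0 was Papss2, which makes the sulfate donor, at 10.78 and 10.65 in KO pools 2 and 4, against 10.22, 10.002 and 9.85 in WT pools 1, 9 and 11. Its groups did not overlap, but it did not pass (log2 fold change 0.69, SE 0.17, limma adjusted p = 0.0685), with 0.49 against WT pool 1 alone. Of 23 genes of chondroitin and dermatan sulfate synthesis 12 were measured and 0 passed, with a median of 0.01 that turned to -0.075 against WT pool 1 alone. Dse, the epimerase that turns chondroitin into dermatan sulfate, read 10.84 and 10.89 in KO pools 2 and 4, against 10.53, 10.04 and 10.05 in WT pools 1, 9 and 11 (log2 fold change 0.66, SE 0.18, limma adjusted p = 0.0946), or 0.34 against WT pool 1 alone. Papss2 and Dse do not stand for their lists. The KO mean was the higher one in 6 of the 10 genes of the keratan sulfate list. In the chondroitin and dermatan sulfate list it was higher in 7 of the 12, beside 49.8% of all probe sets. The background was 0.676% of all probe sets past the threshold in either direction.

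More distant relatives of the family were measured for 3 of 8 genes, and 0 passed. Ecm2, which lies beside Aspn, Omd and Ogn on chromosome 13, was at 9.77 and 9.50 in KO pools 2 and 4, against 9.45, 9.15 and 8.93 in WT pools 1, 9 and 11 (log2 fold change 0.46, SE 0.18, limma adjusted p = 0.251), or 0.18 against WT pool 1 alone. Chad was at -0.14 (-0.09 against WT pool 1 alone), and Podnl1 at -0.03 (0.11 against WT pool 1 alone). Of 20 listed core proteins of other proteoglycans 13 were measured and 0 passed. In 11 of them the KO mean was the higher one, beside 49.8% of all probe sets. Sdc2, for the heparan sulfate proteoglycan syndecan-2, lay furthest from 0 among the core proteins (log2 fold change 0.60, SE 0.19, limma adjusted p = 0.136), or 0.28 against WT pool 1 alone. The median of these core proteins was 0.32, or 0.16 against WT pool 1 alone.

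The partners of the family in the matrix, fibrillar collagens and the enzymes that assemble them, were measured for 15 of 30 genes. Of these 1 rose, 0 fell and 14 did not pass, beside 0.676% of all probe sets past the threshold in either direction. The median was 0.28 (0.18 against WT pool 1 alone). P4ha3, a catalytic subunit of the prolyl hydroxylase that stabilises the collagen helix, read 10.21 and 10.27 in KO pools 2 and 4, against 9.83, 8.85 and 8.97 in WT pools 1, 9 and 11 (log2 fold change 1.02, SE 0.22, limma adjusted p = 0.0372). Its difference against WT pool 1 alone was 0.41, over 1.5 times smaller. Among proteases that cut matrix proteoglycans 7 of 10 were measured, 1 rose and 6 did not pass, beside the same 0.676%. Adamts1, which cuts aggrecan and versican, read 10.72 and 11.11 in KO pools 2 and 4, against 10.40, 9.70 and 10.01 in WT pools 1, 9 and 11 (log2 fold change 0.88, SE 0.20, limma adjusted p = 0.0445), and its difference against WT pool 1 alone was 0.52. Neither passed without WT pool 1, without WT pool 9 or without either KO pool. P4ha3 passed in 3 of 11 alternative settings and Adamts1 in 2, with adjusted p-values from 0.0042 to 0.857 for P4ha3 and from 0.0061 to 0.857 for Adamts1.

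Markers of tendon and cartilage, tissues known for Kera and Epyc, and of corneal epithelium and bone were set beside them. Tendon markers other than family members were measured for 5 of 8 genes and 0 passed. Of the 5 measured, 4 had the higher KO mean, beside 49.8% of all probe sets, and the median was 0.06 (0.12 against WT pool 1 alone). Scx, the transcription factor of tendon cells, went the other way (log2 fold change -0.04, and 0.12 against WT pool 1 alone). It read 8.31 in both KO pools, against 8.20, 8.38 and 8.48 in WT pools 1, 9 and 11. Tnc, for tenascin C, lay furthest from 0 (log2 fold change 0.46, SE 0.18, limma adjusted p = 0.234), or 0.22 against WT pool 1 alone. Cartilage markers were measured for 11 of 20 genes, 0 passed and 4 had the higher KO mean (49.8% over all probe sets), with a median of -0.03. That median turned to 0.04 against WT pool 1 alone, 0.03 after median centring and 0.04 after quantile normalisation. The mean of the cartilage markers was 7.90 and 7.99 in KO pools 2 and 4, against 7.97, 8.01 and 8.11 in WT pools 1, 9 and 11. Col2a1, the main collagen of cartilage, read 9.27 and 9.50 in KO pools 2 and 4, against 9.49, 9.52 and 9.64 in WT pools 1, 9 and 11. Sox9, the transcription factor of cartilage, lay furthest from 0, on the lower side (log2 fold change -0.69, SE 0.18, limma adjusted p = 0.0749, and -0.82 against WT pool 1 alone). Of the corneal epithelium markers Krt12 was measured, and it read 7.81 and 8.03 in KO pools 2 and 4, against 7.76, 7.88 and 7.96 in WT pools 1, 9 and 11. The corneal stroma, the part known for keratocan, had no list, and Krt12 does not speak to it. Bone markers were measured for 2 of 8 genes and 0 passed, with Alpl, the alkaline phosphatase of mineralising cells, at 0.45 (0.01 against WT pool 1 alone). The medians of the tendon, cartilage, corneal epithelium and bone lists thus lay between -0.03 and 0.22. Against WT pool 1 alone they lay between 0.04 and 0.16, and the corneal epithelium median is that of Krt12 alone.

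Among cells resident in nerve, perineurium markers were measured for 6 of 9 genes, with a median of 0.45 (0.22 against WT pool 1 alone). Of these 6 genes 1 rose, 0 fell and 5 did not pass, beside 0.676% of all probe sets past the threshold in either direction. The rise was Moxd1, one of the genes near Kera in pattern, at 9.91 and 10.16 in KO pools 2 and 4, against 8.79, 8.08 and 8.39 in WT pools 1, 9 and 11 (log2 fold change 1.62, SE 0.20, limma adjusted p = 0.000122), or 1.25 against WT pool 1 alone. The list was chosen with earlier results of these data known, and nearness to Kera depends on the size of this same difference. Neither is therefore read as a link between Kera and the perineurium. Of the 6 markers 5 had the higher KO mean, beside 49.8% of all probe sets. Slc2a1 went the other way, at 10.52 and 10.45 in KO pools 2 and 4, against 10.84, 10.94 and 10.96 in WT pools 1, 9 and 11. Its log2 fold change was -0.43 (SE 0.17, limma adjusted p = 0.228), and -0.355 against WT pool 1 alone. The mean of the perineurium markers was 10.97 and 11.13 in KO pools 2 and 4, against 10.79, 10.32 and 10.60 in WT pools 1, 9 and 11. Nerve fibroblast markers were measured for 8 of 12 genes, 0 passed and the median was 0.24 (0.11 against WT pool 1 alone). Their mean was 10.79 and 10.73 in KO pools 2 and 4, against 10.74, 10.62 and 10.68 in WT pools 1, 9 and 11, and Sox9 was again the furthest from 0. Whether a shift in perineurial or fibroblast RNA takes part in the values of the family was not tested.

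Schwann cell markers were measured for 6 of 11 genes, with a median of -0.36 (-0.33 against WT pool 1 alone). Of these 6 genes 1 fell, 0 rose and 5 did not pass, beside 0.676% of all probe sets past the threshold in either direction. The fall was Mag, for the myelin-associated glycoprotein, at 10.72 and 10.52 in KO pools 2 and 4, against 11.38, 11.94 and 11.51 in WT pools 1, 9 and 11 (log2 fold change -0.99, SE 0.19, limma adjusted p = 0.0166), or -0.76 against WT pool 1 alone. Moxd1 and Mag each passed in 3 of 11 alternative settings (adjusted p from 3.26e-07 to 0.857 for Moxd1 and from 0.0013 to 0.857 for Mag), and neither passed without WT pool 1, without WT pool 9 or without either KO pool. Without KO pool 4 the Schwann cell differences were -0.89 for Mag, -0.19 for Cdh19 and for Mbp, -0.16 for Erbb3, -0.002 for Sox10 and 0.04 for Foxd3. The size of the list median thus leaned on KO pool 4. The remaining lists had 0 genes past the threshold. Endothelial markers (8 of 8 measured) had a median of 0.43, led by Kdr at 0.52. Against WT pool 1 alone the endothelial median was 0.14 and Kdr was at 0.19. Macrophage markers (3 of 8 measured) had a median of -0.17 (-0.12 against WT pool 1 alone) and Cx3cr1 at -0.36 (-0.41 against WT pool 1 alone). For skeletal muscle (12 of 12 measured) the median was -0.37, with Tnnc2 at -0.82, and the median turned to 0.55 and Tnnc2 to 0.50 against WT pool 1 alone. For keratinocytes (8 of 10 measured) it was -1.06, with Krt1 at -2.42, and the median turned to 0.18 and Krt1 to 0.22 against WT pool 1 alone.

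**Figure D5:**
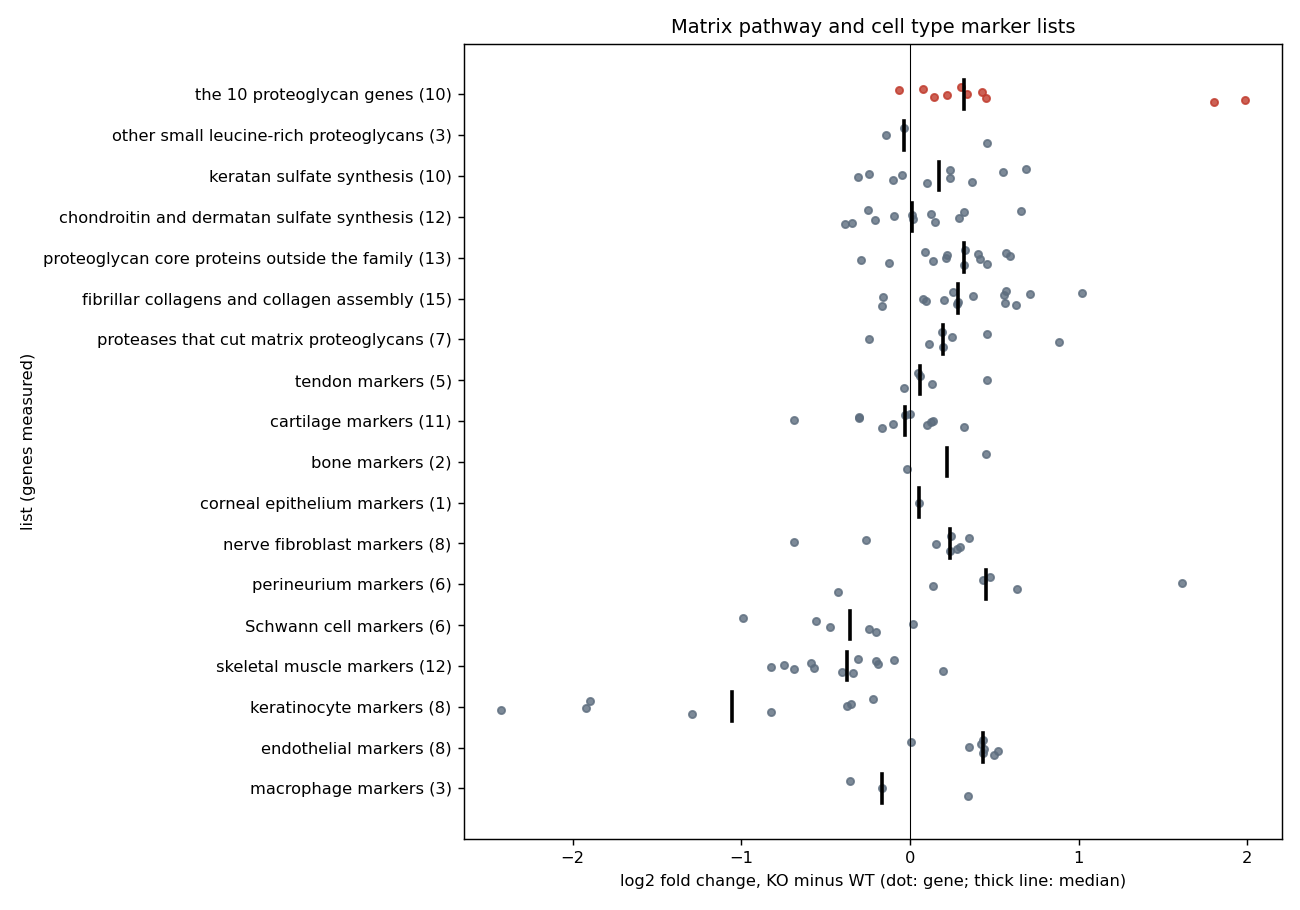
Log2 fold changes, KO minus WT, of the 10 proteoglycan genes (top row) and of the measured genes of each pathway and marker list, with 1 dot per gene and a thick line at the median. Kera and Epyc are the far dots of the top row, at 1.99 and 1.80, and the tendon and cartilage medians lie at 0.06 and -0.03, with the cartilage sign turned against WT pool 1 alone (0.04), after median centring (0.03) and after quantile normalisation (0.04).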

How the data were processed

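RNA of 5 pools of 12 sciatic nerves was measured on Affymetrix whole-transcript arrays. Per the submitters' processing notes, RMA gave the deposited log2 expression values (RMA version, options and genome build: not given in the sources used here). Gene names came from the 2016 platform annotation (9411 of 10361 with 1 symbol, 384 with several and 566 not listed; 0 symbols needed updating through RefSeq GRCm38.p6). A symbol with several probe sets was represented by the one with the highest mean.

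The genotypes were compared with limma 3.58.1 in R 4.3.3 (lmFit, eBayes, default prior, no covariates) on the deposited values, two-sided, with Benjamini-Hochberg adjustment over all 10361 probe sets and a threshold of 0.05 (3 residual and 17.4 prior degrees of freedom). The fit was also run on simulated data with independent noise between arrays. That setting lacks the differences between the WT pools seen here, so nothing is read from it for these arrays. The number of arrays limits the precision.

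The members and the 17 gene lists (6 pathway, 11 marker) were chosen with earlier results of these data known, and no member is in a list. Of the 209 listed genes 127 were measured. Named are all members, the called genes of each list or otherwise the gene furthest from 0, the 5 genes nearest to a member in pattern, and the measured chromosome neighbours. Ebf2 is named as a check of the labels. Scx and Col2a1, whose values were known, were added as defining markers, as were Chad and Podnl1. Slc2a1 was added as the perineurium marker with the lower KO mean. For members other than Kera, Epyc and Fmod the nearest genes are not listed. The alternatives left out each pool, used WT pool 1 alone, centred or quantile-normalised the arrays, added an intensity trend, omitted moderation, or kept only probe sets above the median level.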

Additional observations from a re-analysis of the deposited data

How the results depend on the processing

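The log2 fold changes of Kera and Epyc kept their direction in all 8 alternatives run for them. They ran from 1.77 to 2.25 for Kera and from 1.56 to 1.99 for Epyc when 1 pool was left out, and were 1.46 and 1.42 against WT pool 1 alone, where the change comes from leaving out WT pools 9 and 11. Fmod ran from 0.12 to 0.32 over its 8 alternatives. The sign changed in 1 of 8 alternatives for Ogn and in 2 of 8 for Aspn, and in none of 8 for the other members. The 5 genes nearest to Kera, Epyc and Fmod were the same 5 after median centring.

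The number of probe sets past the threshold was far less stable. It was 70 (36 higher, 34 lower) and ran from 0 to 105 when 1 pool was left out (6 without WT pool 1, 1 without WT pool 9, 105 without WT pool 11, and 0 without either KO pool, where limma gave 2309 without KO pool 2 and 327 without KO pool 4 at unadjusted p below 0.05). By limma 0 passed against WT pool 1 alone (127 unadjusted) and 0 without moderation (498 unadjusted). Median centring and quantile normalisation gave 1 each, an intensity trend 158, and the probe sets above the median level alone 287. Of the 127 measured listed genes 3.15% passed, beside 0.676% of all probe sets, but the lists were chosen with earlier results known. The count among the listed genes was 4 and ran from 0 to 7 with 1 pool left out. It was 0 against WT pool 1 alone, 0 after either scaling and 0 without moderation, 8 with the trend and 14 above the median level. The causes were not tested. No paired analysis was possible because the pool numbers of the 2 genotypes do not overlap.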
